A study of Mus musculus with 6 samples.

Results

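The genes described here move calcium in and out of the sarcoplasmic reticulum of heart muscle and across the cell membrane. The 10 genes are Atp2a2, Pln, Ryr2, Casq2, Slc8a1, Cacna1c, Trdn, Jph2, Hrc and Camk2d. Their rows were found by gene symbol, and each gene matched 1 row among the 54532 genes of the deposited count table. RNA had been sequenced from heart tissue of C57BL/6 mice, 8 to 10 weeks old per the labels, at day 14 after myocardial infarction (MI). The WT group held 3 samples from wild type mice, and the ACKR4_KO group held 3 samples from mice carrying the ACKR4 knockout. All 6 samples came after infarction, so no uninfarcted level is analysed here, and the labels give neither the part of the heart sampled nor how the knockout was made. Nothing in the labels says whether the 3 samples of a group came from separate animals, so the p-values measure the spread between these samples.

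In heart muscle, an action potential opens L-type calcium channels, and the calcium that enters triggers a larger release from the sarcoplasmic reticulum through ryanodine receptors. Relaxation follows when the SERCA pump returns calcium to the reticulum and the sodium-calcium exchanger expels the rest. Phospholamban holds the pump back until it is phosphorylated, and calcium-calmodulin kinase II phosphorylates both phospholamban and the release channel. In failing hearts this cycle is known to slow, and the balance of phospholamban to pump is a commonly cited measure of it.

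Libraries held 9422462 to 13910358 counted reads, and a member gene had between 702 and 95181 reads in a library. Ackr4, the targeted gene, was counted 165, 151 and 169 times in WT and 4, 1 and 12 times in ACKR4_KO, which matched the labels. The ACKR4_KO libraries varied more among themselves than the WT libraries did, with a biological coefficient of variation of 26.7% against 11.7%. ACKR4_KO replicates 2 and 3 each stood apart. Replicate 2 had the lowest scaling factor (0.891) and a summed level of 8 fibroblast markers of 3845 CPM (a gene's reads scaled to library size by the TMM method), where the other 5 libraries had 9459 to 13399 CPM. Replicate 3 correlated least with the other ACKR4_KO libraries (r = 0.956 and 0.952 across genes, against 0.966 between replicates 1 and 2) and had the highest of these fibroblast sums. The ventricular muscle markers Myl2 and Myh6 were at 3726 CPM or more and 7741 CPM or more in every library. Of 7 atrial markers, Bmp10 had 0 reads and Myl7 0 to 3 reads in a library, and Sln and Myl4 were at 0 to 2.62 CPM and 1.24 to 10.5 CPM. The other atrial markers were present, with Nppa at 234 to 1059 CPM, Dkk3 at 27.7 to 131 CPM and Nr2f2 at 15 to 30 CPM.

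All 10 genes had a higher mean in ACKR4_KO than in WT, by small amounts. The log2 fold changes lay between 0.15 for Pln and 0.47 for Ryr2, with a median of 0.32, where the median over all 14406 genes tested was 0.01 and 52.0% of them were higher. In edgeR's quasi-likelihood test with a threshold of 0.05 on the adjusted p, 0 members were called, and so was 0% of the genes tested. The same test did not call the targeted gene Ackr4 either (log2 fold change -4.70, adjusted p = 0.099), whose adjusted p by DESeq2 was 1.4e-18, so 0 calls say little about differences of the size seen in the members. At an unadjusted p under 0.05 there were 4 members, Ryr2, Cacna1c, Slc8a1 and Jph2, against 3.81% of all genes in that direction and 7.45% in either. That number was 0 without WT replicate 2, 2 without WT replicate 1 or 3, and 7 without ACKR4_KO replicate 3. The same 4 genes were the ones whose ACKR4_KO libraries all lay above all WT libraries, which held for 6.53% of all genes. DESeq2 and limma-voom also called 0 members, and each gave the same 4 genes an unadjusted p under 0.05. DESeq2 called 0.234% of the genes it gave an adjusted p. The members share library scaling and the same cells, so they are not 10 independent observations of the genotype. In bulk tissue, a change in the share of cells of a type and a change in RNA per cell cannot be told apart.

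**Figure D1:**
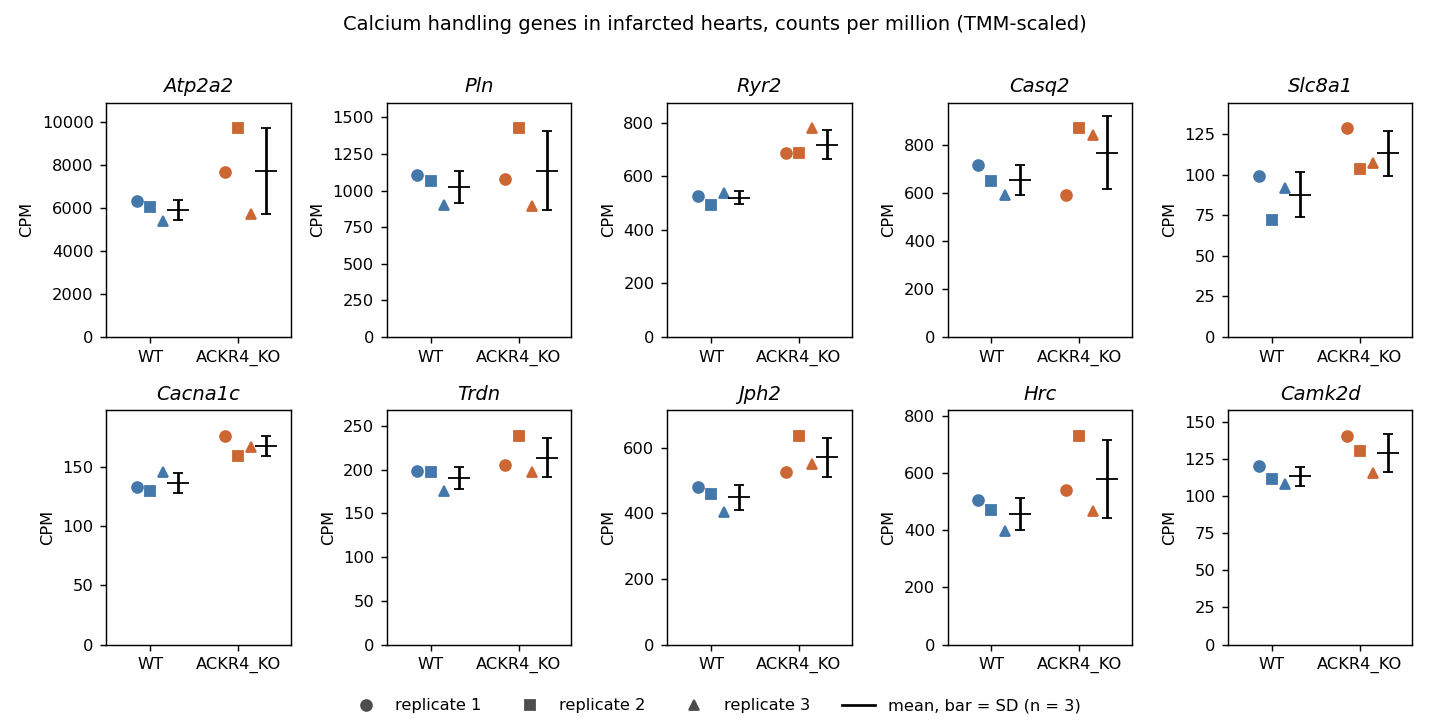
Level of each calcium handling gene in CPM (vertical axis, from 0) in the 3 WT and 3 ACKR4_KO libraries, with replicates as symbols and the mean and SD as black bars. Ryr2, Cacna1c, Slc8a1 and Jph2 do not overlap between groups, while Atp2a2, Pln and Hrc spread widely in ACKR4_KO, with replicate 2 highest and replicate 3 lowest.

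Uptake into the reticulum rests on Atp2a2 and Pln. Atp2a2, which encodes the cardiac calcium pump SERCA2 (ENSMUSG00000029467, chromosome 5, 122453513 to 122502225, minus strand, GRCm38), was at 6315, 6025 and 5388 CPM in WT replicates 1, 2 and 3. In ACKR4_KO replicates 1, 2 and 3 it was at 7687, 9727 and 5744 CPM. The third ACKR4_KO library lay inside the WT range, and the other two lay above it. Its log2 fold change was 0.39 (SE 0.24, adjusted p = 0.708 by edgeR). Without ACKR4_KO replicate 2 it was 0.19, and without ACKR4_KO replicate 3 it was 0.56.

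Pln encodes phospholamban, the small membrane protein that inhibits the pump. Its coding sequence is identical in all 6 coding transcripts of the GENCODE M21 annotation and spans 159 bases including the stop codon. It is shown because phospholamban is where the pump, its inhibitor and the kinase gene of this set meet. Capitals mark codons 16 and 17, the serine and threonine that are phosphorylated by protein kinase A and by calcium-calmodulin kinase II.
Pln: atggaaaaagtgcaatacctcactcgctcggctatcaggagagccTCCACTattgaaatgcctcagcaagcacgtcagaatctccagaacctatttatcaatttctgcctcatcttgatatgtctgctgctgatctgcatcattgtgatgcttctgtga

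Pln (ENSMUSG00000038583, chromosome 10, 53337667 to 53345987, plus strand) was at 1109, 1065 and 899 CPM in the WT libraries and at 1082, 1427 and 896 CPM in the ACKR4_KO libraries, in replicate order. The groups overlapped, and replicate 2 was the one ACKR4_KO library above the WT range. Its log2 fold change of 0.15 had a standard error of 0.21 (adjusted p = 0.875 by edgeR), and it was -0.05 without ACKR4_KO replicate 2, 0.30 with ACKR4_KO replicate 3 left out and 0.06 with WT replicate 3 left out. The level of Pln carries a counting limit. Of its 2759 exonic bases, 1644 lie in exons of Gm47644 on the opposite strand and 141 in exons of Cep85l, which contains the whole gene, so 64.7% of the exonic sequence is shared. Counting that ignores strand can assign reads there to neither gene, and the strand setting was not stated in the sources at hand. Gm47644 itself had 46 to 82 reads in the WT libraries and 66 to 120 in the ACKR4_KO libraries. None of the other 9 members is affected to that extent.

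Casq2 and Hrc act inside the reticulum. Casq2 encodes cardiac calsequestrin, the main calcium buffer of the store (ENSMUSG00000027861, chromosome 3, 102086415 to 102146514, plus strand). It was at 717, 653 and 595 CPM in WT and 595, 873 and 842 CPM in ACKR4_KO. ACKR4_KO replicate 1 sat at the lowest WT value and the other two above all WT libraries. Casq2 had a log2 fold change of 0.23 (SE 0.19, adjusted p = 0.773 by edgeR), which was 0.39 without ACKR4_KO replicate 1 and 0.14 without ACKR4_KO replicate 2. Hrc encodes the histidine-rich calcium binding protein, which binds both the pump and triadin (ENSMUSG00000038239, chromosome 7, 45335290 to 45338974, plus strand). Its levels were 505, 471 and 397 CPM in WT and 540, 732 and 468 CPM in ACKR4_KO, with 1 ACKR4_KO library inside the WT range. For Hrc the log2 fold change was 0.34 (SE 0.20, adjusted p = 0.702 by edgeR). It was 0.14 without ACKR4_KO replicate 2 and at most 0.48 with 1 library left out.

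The release unit is built from Ryr2, Trdn and Jph2. Ryr2 encodes the cardiac ryanodine receptor, the channel through which the store empties (ENSMUSG00000021313, chromosome 13, 11553102 to 12106945, minus strand). It was at 528, 493 and 539 CPM in WT and at 687, 686 and 781 CPM in ACKR4_KO. The lowest ACKR4_KO library exceeded the highest WT library, and the spread was narrow in both groups (SD 23.7 CPM around a mean of 520 CPM, and SD 54.5 CPM around 718 CPM, n = 3 each). Ryr2 thus had a 1.38-fold higher mean, a log2 fold change of 0.47 (SE 0.14), and 0.41 to 0.50 with 1 library left out. Its p was the smallest of the 10 genes (0.0108 unadjusted by edgeR), yet it ranked 250 among all genes tested, and the adjusted p was 0.619. By DESeq2 the adjusted p was 0.0919, and over all alternatives run it lay between 0.0919 and 0.999.

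Jph2 encodes junctophilin-2, which ties the reticulum to the transverse tubule so that channel and receptor face each other (ENSMUSG00000017817, chromosome 2, 163336242 to 163397993, minus strand). It stood at 481, 459 and 405 CPM in WT and 525, 637 and 550 CPM in ACKR4_KO, without overlap. Jph2 had a log2 fold change of 0.35 (SE 0.15, adjusted p = 0.666 by edgeR), and 0.27 to 0.40 with 1 library left out. Trdn encodes triadin, which anchors calsequestrin to the ryanodine receptor (ENSMUSG00000019787, chromosome 10, 33080554 to 33476709, plus strand). Its levels of 198, 197 and 176 CPM in WT and 205, 239 and 197 CPM in ACKR4_KO overlapped at ACKR4_KO replicate 3. For Trdn this gave a log2 fold change of 0.16 (SE 0.13, adjusted p = 0.772 by edgeR). It was 0.08 without ACKR4_KO replicate 2 and at most 0.22 with 1 library left out. Ryr2 and Trdn, parts of the same complex, thus had the highest and the second lowest fold change of the 10, and the difference between these fold changes was not tested.

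Across the cell membrane, Cacna1c admits calcium and Slc8a1 removes it. Cacna1c encodes the pore of the L-type calcium channel (ENSMUSG00000051331, chromosome 6, 118587240 to 119196418, minus strand). It was at 133, 130 and 146 CPM in WT and at 177, 160 and 167 CPM in ACKR4_KO, with no overlap and the smallest spread of the 10 genes in ACKR4_KO (coefficient of variation 5.11%). Its log2 fold change was 0.30 (SE 0.12, adjusted p = 0.661 by edgeR), and 0.26 to 0.35 with 1 library left out. Slc8a1 encodes the sodium-calcium exchanger NCX1 (ENSMUSG00000054640, chromosome 17, 81373105 to 81738377, minus strand). It was at 99.0, 72.2 and 91.9 CPM in WT and 129, 103 and 107 CPM in ACKR4_KO, so every ACKR4_KO library was above every WT library although WT replicate 2 was low. The exchanger's log2 fold change was 0.37 (SE 0.15, adjusted p = 0.664 by edgeR), and 0.24 to 0.46 with 1 library left out.

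Camk2d encodes the delta chain of calcium-calmodulin kinase II, the main form of that kinase in the heart (ENSMUSG00000053819, chromosome 3, 126596302 to 126846326, plus strand). It was at 121, 112 and 108 CPM in WT and 141, 131 and 116 CPM in ACKR4_KO. The third ACKR4_KO library fell between WT replicates 1 and 2, and the other two exceeded all WT libraries. Camk2d had a log2 fold change of 0.19 (SE 0.12, adjusted p = 0.728 by edgeR). It was 0.12 without ACKR4_KO replicate 1 and at most 0.26 with 1 library left out. Splice forms of Camk2d differ in where the kinase acts, and counts per gene do not separate them.

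Sequence upstream of the start site was at hand for 8 of the 10 genes (11 start sites) in the RefSeq promoter table of GRCm38.p6, with Atp2a2 and Trdn not matched. The 250 bases before the start are shown for Ryr2 and Pln, the genes with the largest and the smallest fold change of the 10, and they differ in base composition, at 63.2% and 32.8% G or C against a median of 52.4% over all promoters. Capitals mark matches on either strand to the motifs searched, which were the E-box CANNTG, the GATA site GATAA, the M-CAT site CATTCC, the TATA box TATAAA, the GC box GGGCGG and a MEF2-type site (CTA and TAG with any 4 bases between).
Ryr2 (chr13:12106946-12107195, minus strand): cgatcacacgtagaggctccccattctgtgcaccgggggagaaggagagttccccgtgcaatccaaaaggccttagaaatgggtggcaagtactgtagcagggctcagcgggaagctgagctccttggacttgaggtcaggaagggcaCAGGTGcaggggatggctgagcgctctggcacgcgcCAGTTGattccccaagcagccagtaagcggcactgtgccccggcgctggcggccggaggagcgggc
Pln (chr10:53337436-53337685, plus strand): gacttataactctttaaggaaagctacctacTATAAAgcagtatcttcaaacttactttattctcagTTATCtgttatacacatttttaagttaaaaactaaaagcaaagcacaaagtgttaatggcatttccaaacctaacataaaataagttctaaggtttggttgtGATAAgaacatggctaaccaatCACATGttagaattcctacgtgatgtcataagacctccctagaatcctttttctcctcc

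Ryr2 had 2 E-box matches and no other motif, while Pln had a TATA box match, 2 GATA matches and an E-box match. Over the 11 start sites of the 8 genes, an E-box was present at 10, against 66.2% of all 32851 promoters in the table. A GATA match was present at 3 (22.6% of all), a GC box at 5 (32.7%), a TATA box at 1 (12.4%), and an M-CAT or MEF2-type match at 0 (12.6% and 3.20%). The start sites of Jph2 overlap each other and are not separate observations. These matches describe the letters of these windows and no binding was measured.

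The ratio of Pln to Atp2a2 had a lower mean in ACKR4_KO than in WT, and the libraries did not overlap. WT libraries had 0.176, 0.177 and 0.167 reads of Pln per read of Atp2a2, and ACKR4_KO libraries had 0.141, 0.147 and 0.156. The mean was 0.173 ± 0.00547 in WT and 0.148 ± 0.00769 in ACKR4_KO (mean ± SD, n = 3 each). The mean log2 ratio was lower by 0.23 in ACKR4_KO (log2 difference -0.23). The two-sided exact permutation p was 0.10, the smallest that 3 against 3 libraries allow, and the adjusted p over the 9 ratios to Atp2a2 was 0.90. With any 1 library left out the log2 difference lay between -0.27 and -0.19. A ratio to Atp2a2 that separated the groups downward was common, however, since 20.6% of all genes with reads in every library showed one, while 0.355% separated upward. The shared exonic sequence described above may lower the count of Pln, so the absolute ratio is not one of transcript numbers.

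**Figure D2:**
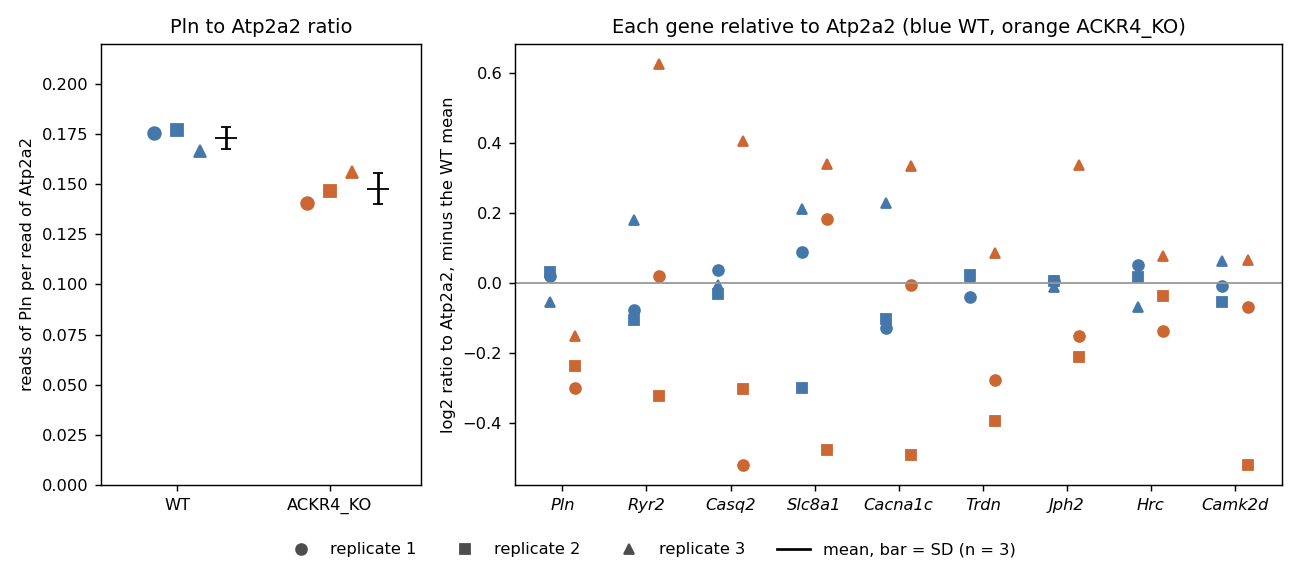
Left, reads of Pln per read of Atp2a2 in each library (vertical axis from 0), with mean and SD, and right, log2 ratio of each of the other 9 genes to Atp2a2 minus its WT mean, WT in blue and ACKR4_KO in orange. The 3 ACKR4_KO values of Pln lie between 0.141 and 0.156 and below all WT values, and in the other 8 genes the groups overlap.

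In all, 7 of the 9 ratios to Atp2a2 had a lower mean in ACKR4_KO, as did 91.0% of all genes. The median log2 difference was -0.05 over the 9 genes and -0.36 over all genes, so the value of Pln, -0.23, was closer to 0 than that of the median gene. Among the other 8 ratios, the ACKR4_KO libraries spread to both sides of WT. Reads of Ryr2 per read of Atp2a2 were 0.0837, 0.0819 and 0.10 in WT and 0.0894, 0.0706 and 0.136 in ACKR4_KO. Those of Casq2 were 0.114, 0.108 and 0.110 in WT and 0.0774, 0.0897 and 0.147 in ACKR4_KO. Jph2 had an almost constant ratio in WT, at 0.0761, 0.0762 and 0.0752, but not in ACKR4_KO, where it was 0.0683, 0.0655 and 0.0957. In all of these 8 ratios, not only those 3, ACKR4_KO replicate 3 had the highest value of all 6 libraries. Atp2a2, the shared denominator, was at 5744 CPM in that library, against 7687 and 9727 CPM in ACKR4_KO replicates 1 and 2. Hrc had the smallest spread of log2 ratio in ACKR4_KO after Pln, with 0.0703, 0.0752 and 0.0815 against 0.0800, 0.0782 and 0.0737 in WT. The 9 exact p-values lay between 0.10 and 1, and all adjusted values were 0.90 or above.

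The contractile genes of the same cells were higher too. All 10 of the contractile genes used as a reference (Myh6, Myl2, Myl3, Tnnt2, Tnni3, Tnnc1, Actc1, Ttn, Mybpc3 and Tpm1) had a higher mean in ACKR4_KO, and their median log2 fold change was 0.42. Of these, 0 passed the adjusted threshold by edgeR, DESeq2 or limma-voom, and 1 had an unadjusted p under 0.05 by edgeR. In 3 of the 10 contractile genes all ACKR4_KO libraries lay above all WT libraries, which held for 6.53% of all genes. The summed level of the 10 was 35143 to 44979 CPM in WT and 43443 to 62378 CPM in ACKR4_KO, which overlapped. Set against the geometric mean of these genes within each library, 9 of the 10 calcium handling genes had a lower mean log2 ratio in ACKR4_KO, as did 92.9% of all genes. The differences lay between -0.28 for Pln and 0.06 for Ryr2, with a median of -0.09, where the median gene stood at -0.41. Casq2 was the one gene whose ratio separated the groups, at 0.2143, 0.1824 and 0.2017 in WT and 0.1676, 0.1752 and 0.1818 in ACKR4_KO. The gap between WT replicate 2 and ACKR4_KO replicate 3 was thus narrow. Such a separation was found downward in 30.9% of all genes and upward in 0.376%. The exact permutation p of Casq2 was 0.10, and the adjusted p over the 10 ratios was 0.667. With Tnnt2 alone as the reference, the log2 difference of Casq2 was -0.19 and the exact permutation p was 0.20, so the groups overlapped. Without ACKR4_KO replicate 3 the number of members with a lower ratio was 5. With 1 library left out, Pln lay between -0.40 (without ACKR4_KO replicate 1) and -0.07 (without ACKR4_KO replicate 3), and Ryr2 between -0.06 (without ACKR4_KO replicate 1) and 0.19 (without ACKR4_KO replicate 2).

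Levels per kilobase of exon gave a steep order. In WT, Atp2a2 stood at 972 ± 78.0 CPM per kilobase (mean ± SD, n = 3 here and below), followed by Pln at 371 ± 40.2, Casq2 at 239 ± 22.4, Hrc at 178 ± 21.6 and Jph2 at 105 ± 9.14. These 5 genes lay far above the rest. Trdn followed at 20.4 ± 1.36 and Ryr2 at 18.1 ± 0.825, then Cacna1c at 6.43 ± 0.398, Camk2d at 5.05 ± 0.288 and Slc8a1 at 4.66 ± 0.737 CPM per kilobase. In WT every neighbour in this order was separated from the next in all libraries except Camk2d and Slc8a1. In ACKR4_KO the order was the same but for 2 swaps, with Ryr2 (24.9 ± 1.89) above Trdn (22.8 ± 2.38) and Slc8a1 (6.01 ± 0.731) above Camk2d (5.74 ± 0.567), and the libraries overlapped within both pairs and between Casq2 and Hrc. The length is the union of all annotated exons, which is longer than any 1 transcript and so understates genes with many alternative exons. The 5 lower genes have 9352 to 28790 exonic bases and the 5 higher ones 2566 to 6081, so the order depends on this length. Without it, Ryr2 (mean 520 CPM in WT) lay above Hrc (458 CPM) and Jph2 (448 CPM). Pln may also be understated by its shared sequence.

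Ryr2, Cacna1c and Camk2d each have more than 20000 exonic bases. Among the 105 genes of that length class that were tested, the median log2 fold change was 0.11 and 72.4% were higher in ACKR4_KO, where all genes stood at 0.01 and 52.0%. The 4 next shorter classes, which hold the other 7 genes, had medians between -0.01 and 0.00. The shortest class, up to 2000 bases, holds no member and had a median of 0.10 with 61.9% higher. The fold changes of Ryr2 (0.47), Cacna1c (0.30) and Camk2d (0.19) lay above the median of their class. The part of transcript length in them was not tested.

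The wider calcium system was read from a list of 93 further genes in 8 roles, of which 90 matched a row and 84 were tested. None passed the adjusted threshold by edgeR, DESeq2 or limma-voom, and 14 had an unadjusted p under 0.05 by edgeR, 11 of them higher and 3 lower (3.64% of all genes were lower at that level). In all, 50 of 84 were higher in ACKR4_KO (59.5%, against 52.0% of all genes), with a median log2 fold change of 0.10, which was 0.05 without WT replicate 3 or without ACKR4_KO replicate 2. Libraries did not overlap in 13 genes that were higher and 7 that were lower (6.53% and 7.63% of all genes).

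Genes of the dyad, the cleft between transverse tubule and reticulum, were higher in 6 of 7 (median 0.35). Speg, a kinase bound to junctophilin-2, was at 130, 107 and 111 CPM in WT and 147, 157 and 222 CPM in ACKR4_KO. The groups did not overlap, and its log2 fold change of 0.60 had an adjusted p of 0.611 by edgeR. Tcap, the telethonin gene, had 0.13 and Dysf, the dysferlin gene of membrane repair, had 0.22, both with overlap.

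Extrusion genes were higher in 6 of 7 (median 0.36). Fxyd1, which encodes phospholemman, the inhibitor of the sodium pump, had a log2 fold change of 0.72, but it ran from 141 to 333 CPM in ACKR4_KO and overlapped with WT (120 to 156 CPM). Atp1b1, a sodium pump subunit, had 0.25, with overlap. Kinases and phosphatases were higher in 16 of 18 with a small median of 0.11. Leaving out ACKR4_KO replicate 1 lowered this to 12 of 18 (median 0.08). It was 16 of 18 (median 0.07) when ACKR4_KO replicate 2 was dropped, and 17 of 18 (median 0.24) when ACKR4_KO replicate 3 was dropped. The protein kinase A subunit Prkaca and the phosphatase subunit Ppp1ca act on phospholamban in opposite directions. Their log2 fold changes were 0.22 and 0.18 (unadjusted p = 0.155 and 0.230 by edgeR). Neither gene overlapped between the groups, but by narrow margins. The highest WT and lowest ACKR4_KO libraries were at 220.2 and 222.0 CPM for Prkaca and 237.0 and 238.5 CPM for Ppp1ca. Prkar1a (0.03) and Ppp1cb (0.09) overlapped.

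The remaining roles were more mixed. The release complex beside the members was higher in 5 of 12 (median -0.01, 0.02 without ACKR4_KO replicate 2, 0.11 with 10 of 12 higher without ACKR4_KO replicate 1, and -0.06 with 4 of 12 higher without ACKR4_KO replicate 3). Its most abundant gene was Srl, which encodes sarcalumenin, a calcium-binding protein of the reticulum, at 579, 553 and 458 CPM in WT and 579, 904 and 739 CPM in ACKR4_KO. Before rounding, the lowest ACKR4_KO library was above the highest WT library by less than 1 CPM, and the log2 fold change was 0.48. Tmem38a, a counter-ion channel of the reticulum, had 0.25 and Fkbp1a had 0.17, each with overlap. Sarcolemmal entry was higher in 7 of 13 (median 0.15, 0.24 without ACKR4_KO replicate 2, -0.02 without ACKR4_KO replicate 3 and -0.04 with limma-voom), with log2 fold changes of 0.20 for the channel subunit Cacna2d1, 0.33 for Cacnb2, -0.11 for Cacnb3 and -0.05 for the channel inhibitor Rrad. Mitochondrial calcium genes were higher in 5 of 11 (median -0.02, and 0.06 without ACKR4_KO replicate 3), with Vdac1 at 0.29, Vdac2 at 0.30, Smdt1 at 0.48 and Micu2 at -0.05. IP3 receptors and store-operated entry, which serve many cell types, were higher in 3 of 12 (median -0.14, and -0.22 without WT replicate 2). Among the most abundant of them Saraf had 0.11, Itpr1 -0.13, Itpr2 -0.14 and Stim1 -0.22, all with overlap.

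**Figure D3:**
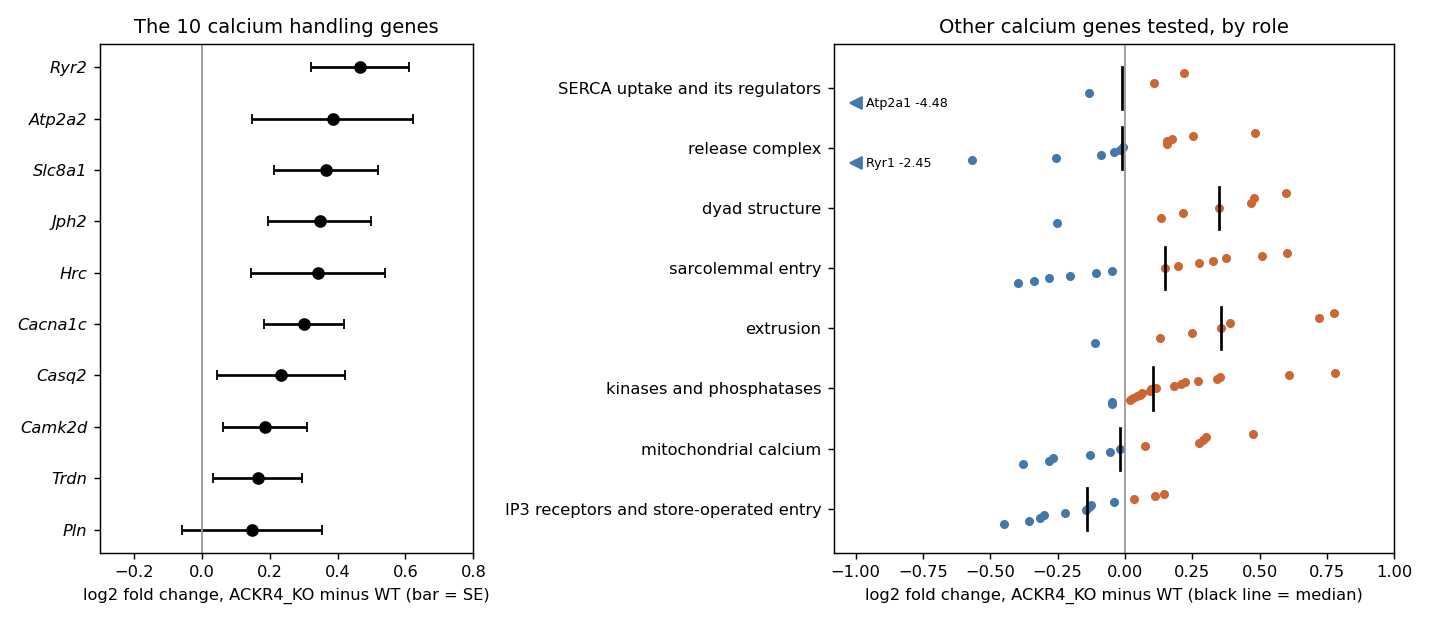
Log2 fold change, ACKR4_KO minus WT (horizontal axes), of the 10 calcium handling genes with standard errors (left) and of the 84 other calcium genes tested, by role, higher in orange and lower in blue, with each role's median as a black line (right). The 10 genes lie between 0.15 for Pln and 0.47 for Ryr2, and Atp2a1 and Ryr1 lie beyond the right panel's axis and are drawn at its edge with their values.

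Other genes that act on SERCA were few. S100a1, which encodes a calcium sensor that stimulates pump and release channel, was at 405, 443 and 394 CPM in WT and 381, 526 and 537 CPM in ACKR4_KO (log2 fold change 0.22, adjusted p = 0.764 by edgeR). Atp2a3, a pump of non-muscle cells, had a log2 fold change of -0.13, and Hax1, whose protein binds phospholamban, had 0.11. Sln, which encodes the atrial pump inhibitor sarcolipin, had 0, 7 and 38 reads in WT and 1, 1 and 0 in ACKR4_KO and was not tested. Atp2a1, the pump of fast skeletal muscle, was at 0.545, 16.3 and 28.4 CPM in WT and 0.242, 1.23 and 0.611 CPM in ACKR4_KO (log2 fold change -4.48, adjusted p = 0.661 by edgeR). The summed level of 9 fast skeletal muscle markers, Atp2a1 among them, was 7.0, 102 and 131 CPM in WT and 3.96, 13.4 and 15.5 CPM in ACKR4_KO. Casq1, another gene of that list, was at 9.57 CPM in WT replicate 3 and 9.60 CPM in ACKR4_KO replicate 3. The part of skeletal muscle RNA in the values of Atp2a1, Ryr1, Casq1 and Sln was not tested. The cardiac pump gene, at 5388 CPM or more in every library, was far above the skeletal form throughout.

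Markers of other cell types had mostly lower means in ACKR4_KO. Fibroblast markers were lower in 7 of 8 (median log2 fold change -0.38, -0.10 without ACKR4_KO replicate 2 and -0.78 without ACKR4_KO replicate 3), with summed levels of 10240 to 11618 CPM in WT and 9459, 3845 and 13399 CPM in ACKR4_KO replicates 1, 2 and 3. Endothelial markers were lower in 6 of 6 (median -0.23, and -0.35 without ACKR4_KO replicate 2), at 1679 to 1861 CPM in WT and 1321 to 1693 CPM in ACKR4_KO. Macrophage markers were lower in 7 of 7 (median -0.15, between -0.33 without ACKR4_KO replicate 1 and 0.00 without ACKR4_KO replicate 2), at 1426 to 1826 CPM and 1119 to 1686 CPM. Smooth muscle and pericyte markers were lower in 6 of 8 (median -0.32), at 1871 to 2130 CPM in WT and 1477 to 1866 CPM in ACKR4_KO. These sums did not overlap, by a narrow margin. In 4 of the 8 genes all ACKR4_KO libraries lay below all WT libraries, which held for 7.63% of all genes. No marker of these 4 lists passed the adjusted threshold by edgeR, and each list but the macrophage one held 1 gene with an unadjusted p under 0.05. Lung epithelial markers summed to 37.6 to 230 CPM in WT and 0.323 to 1.83 CPM in ACKR4_KO, and T and NK cell markers to 9.85 to 15.2 CPM and 4.82 to 5.94 CPM. Erythrocyte markers summed to 263 to 319 CPM in WT and 201, 639 and 137 CPM in ACKR4_KO. Atrial markers, mostly Nppa, summed to 807 to 947 CPM and 280 to 1196 CPM. By edgeR, 4 of 4 tested lung epithelial and 3 of 5 tested T and NK cell markers had an unadjusted p under 0.05. The same held for 1 of 4 tested atrial and 0 of 5 tested erythrocyte markers. All of these were lower in ACKR4_KO, as were 3.64% of all genes at that level, and 0 passed the adjusted threshold. The part of these cell types in the calcium handling genes was not tested.

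**Figure D4:**
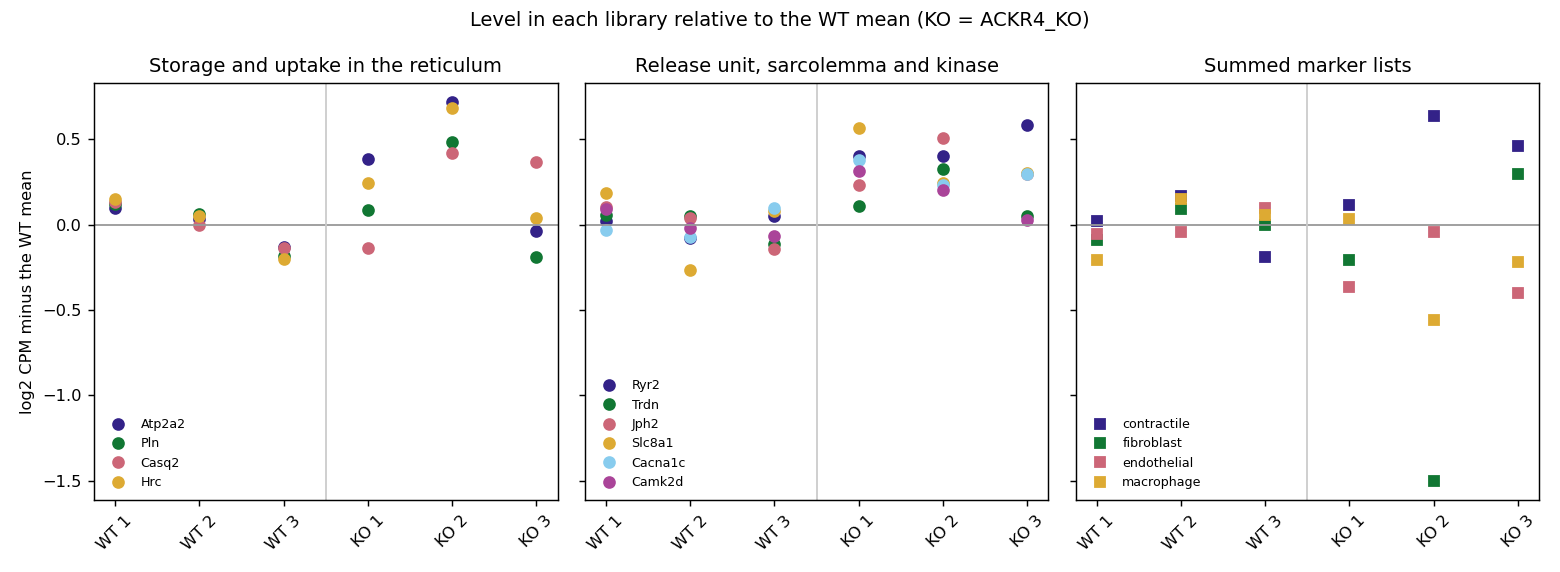
Log2 CPM of each gene minus its WT mean (vertical axis) in each of the 6 libraries, for genes of storage and uptake, for the other calcium handling genes, and for the summed marker lists. ACKR4_KO replicate 2 is above the WT mean in all 10 genes and has the lowest fibroblast sum (3845 CPM), while in ACKR4_KO replicate 3 Pln and Atp2a2 are below their WT means and Ryr2 is at its highest.

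The 3 ACKR4_KO libraries differed in how many members exceeded all WT libraries, and the library with the highest level differed by gene. In ACKR4_KO replicate 2, 10 of 10 genes exceeded all WT libraries, with a median of 0.41 above the WT mean on the log2 scale. In replicate 1 this held for 8 genes (median 0.28) and in replicate 3 for 5 genes (median 0.17). The share of all genes above all WT libraries in a single ACKR4_KO library was not computed, so these counts have no background beside them. Replicate 2 had the highest ACKR4_KO level of Atp2a2, Pln, Casq2, Trdn, Jph2 and Hrc, replicate 1 that of Slc8a1, Cacna1c and Camk2d, and replicate 3 that of Ryr2. Without replicate 2, 9 of 10 members were higher and their median log2 fold change was 0.18, without replicate 1 it was 0.33 and without replicate 3 it was 0.34. The contractile genes had medians of 0.31, 0.52 and 0.34 in those 3 fits.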

How the data were processed

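RNA of 3 WT and 3 ACKR4_KO heart samples was prepared with Trizol and the NEBNext Ultra RNA kit, per the labels. The deposited table holds raw counts of reads per Ensembl gene, made by the authors with CASAVA 1.8.2, HISAT2 and HTSeq 0.6.0 on mm10, per the submitters' processing notes; annotation release and strand setting: not given in the sources used here. GENCODE M21 on GRCm38 (the assembly also called mm10) supplied symbols, exons and coordinates, and a symbol was found for 99.8% of rows. Genes were kept with filterByExpr (minimum count 10), which left 14406 genes and all 10 members. edgeR 4.0.16 (R 4.3.3) scaled libraries by TMM (factors 0.891 to 1.05) and tested ACKR4_KO against WT with its robust quasi-likelihood test (two-sided). P-values were Benjamini-Hochberg adjusted over the whole table, with a threshold of 0.05. CPM values use the TMM-scaled sizes. Ratios within a library were compared by exact permutation over samples. Members and lists were chosen with earlier results of these data known. Genes named from the wider list are all tested genes of the SERCA role and, in each other role, the 4 with the highest mean CPM since none was called; some of these are not reported here. Strit1, Arln and Erln did not match a row. Alternatives were other scalings and filters, DESeq2 1.42.0, limma-voom (limma 3.58.1), the replicate number as a block, other reference genes, and each library left out.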

Additional observations from a re-analysis of the deposited data

How the results depend on the processing

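All 10 members kept a higher mean in ACKR4_KO in 14 of the 15 alternatives run for the fit, and the exception was Pln without ACKR4_KO replicate 2, where its log2 fold change was -0.047. With 1 library left out, the log2 fold change of Pln was -0.047 to 0.30. No member passed the adjusted threshold in any of the 15. The number of genes called over the whole table was 0 in the main test, 41 with DESeq2, 24 without a filter on low counts, 6 with the replicate block and 0 to 1 with 1 library left out. The number of members higher was 9 to 10, of the wider list higher 49 to 52, and of members lower relative to the contractile genes 5 to 10 with 1 library left out. The log2 difference of the Pln to Atp2a2 ratio was -0.27 to -0.19 with 1 library left out and -0.23 with the replicate block, where the exact p is 0.25, the smallest that 3 pairs allow. The labels do not say whether replicate numbers pair the libraries. Correlations of same-numbered deviations were 0.07, 0.05 and 0.13, and those of different numbers lay between -0.12 and 0.06. In all, 5 of 6 libraries correlated best with their own number, so weak pairing was not excluded. The cause of the changes between settings was not tested. Each member had 702 reads or more in every library, so the precision rests on the 3 libraries per group more than on counting error.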

Other observations

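Calcium genes too low to be tested had few reads in every library. Ryr3, the ryanodine receptor of other tissues, had 6, 7 and 12 reads in WT and 14, 5 and 7 in ACKR4_KO. Slc8a3, an exchanger of skeletal muscle and brain, had 4, 2 and 10 reads in WT and 0, 0 and 0 in ACKR4_KO, and Mrln, the skeletal muscle inhibitor of the pump, had 2, 6 and 3 reads in WT and 3, 2 and 3 in ACKR4_KO.

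Some genes outside the naming rule, chosen after their values were seen, had an unadjusted p under 0.05 by edgeR. Pde4d, a phosphodiesterase that breaks down cyclic AMP, was at 11.7, 9.16 and 10.9 CPM in WT and 13.4 to 21 CPM in ACKR4_KO, and Cacna1h, a T-type calcium channel, at 12.2, 7.41 and 10.8 CPM and 13.2, 17.7 and 15.5 CPM, both without overlap. Cav3, the caveolin of muscle, was at 38.4 to 45 CPM in WT and 44.6 to 64.9 CPM in ACKR4_KO, with overlap. In the opposite direction, Stim2, a sensor of store calcium, was at 35.9, 37.1 and 31.1 CPM in WT and 28.5, 26.0 and 29.0 CPM in ACKR4_KO, again without overlap. Their adjusted p was 0.661 each by edgeR.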
